A study of Mus musculus with 6 samples.

Results

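The 10 genes of fatty acid synthesis and its control followed here in mouse liver were the transcription factor genes Srebf1 and Mlxipl, the enzyme genes Acly, Acaca, Acacb, Fasn, Me1 and Pklr, and the lipogenic protein genes Thrsp and Pnpla3. They were chosen by name and matched by gene symbol in the platform annotation, which gave all 10 of 10 genes, with 18 probe sets, among 12393 genes tested. One group was livers of 3 Ppara KO mice, C57 background, titled TFEB-injected, whose livers had received an adenoviral vector. The other was livers of 3 Ppara KO mice of that background titled not-injected. Age was 1 month in both groups, total RNA was hybridised, and the titles call the 3 arrays of a group biological replicates. Because the not-injected mice received no vector, an effect of TFEB and an effect of the adenovirus or the injection cannot be told apart. The labels used here name neither the deleted part of Ppara, the species of TFEB, nor the sex and feeding state of the mice. Liver is bulk tissue, so fewer cells of a type and less RNA per cell cannot be told apart.

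Fatty acid synthesis turns citrate exported from mitochondria into acetyl-CoA by ATP citrate lyase, then into malonyl-CoA by acetyl-CoA carboxylase and into palmitate by fatty acid synthase, with NADPH in part from malic enzyme. In liver the pathway is driven by insulin through the sterol regulatory element binding protein encoded by Srebf1, and by carbohydrate through the carbohydrate response element binding protein encoded by Mlxipl. TFEB is a master regulator of lysosome and autophagy genes that is also known to induce Ppargc1a and lipid breakdown, and the nuclear receptor encoded by Ppara is the main activator of fatty acid oxidation genes in liver.

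The 6 arrays were close to each other, with correlations over the tested genes of 0.995 to 0.998 within the TFEB-injected group, 0.998 to 0.999 within the not-injected group and 0.989 to 0.993 between groups. Expression is given as the log2 level of a probe set, so 1 unit is a 2-fold difference, and changes are TFEB-injected minus not-injected. The Tfeb probe set read 7.63, 7.46 and 7.69 in TFEB-injected livers, against 7.52, 7.63 and 7.51 in not-injected livers. The Ppara probe set read 9.08, 9.04 and 9.12 in TFEB-injected livers, against 8.98, 8.87 and 9.01 in not-injected livers. Neither passed the test (adjusted p = 0.777 for Tfeb and 0.149 for Ppara in the limma fit), and with the species of TFEB and the deleted part of Ppara unknown, neither probe set checks the labels. Hepatocyte identity was clear: the 8 measured markers, among them Alb and Apoa1, had mean levels of 12.97 to 14.98, and 0 of them passed the test.

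Promoter sequence is shown for 5 of the genes, 4 that fell and Acacb, the 1 that rose. Acly and Me1, which also fell, are not shown, so elements shared by these lines need not be shared by every gene that fell. Each line gives the 250 bases before an annotated transcript start in RefSeq for build GRCm38.p6, 5′ to 3′ on the gene's strand. Capitals mark the E-box CACGTG, the sterol regulatory element pattern TCACNCCAC (N is any base), the NF-Y box CCAAT and the GC box GGGCGG, on either strand; the E-box is the core that TFEB and the Mlxipl product recognise. Srebf1 has 3 annotated starts, of which the 1 farthest downstream is shown, and Mlxipl has 2, of which the upstream 1 is shown.
Srebf1, chr11:60210472-60210721, minus strand: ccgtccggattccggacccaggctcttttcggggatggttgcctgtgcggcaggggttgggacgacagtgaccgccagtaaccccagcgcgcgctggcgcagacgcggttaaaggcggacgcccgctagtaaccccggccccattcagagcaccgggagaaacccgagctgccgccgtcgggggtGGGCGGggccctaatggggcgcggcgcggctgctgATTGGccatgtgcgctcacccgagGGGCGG
Mlxipl, chr5:135089640-135089889, plus strand: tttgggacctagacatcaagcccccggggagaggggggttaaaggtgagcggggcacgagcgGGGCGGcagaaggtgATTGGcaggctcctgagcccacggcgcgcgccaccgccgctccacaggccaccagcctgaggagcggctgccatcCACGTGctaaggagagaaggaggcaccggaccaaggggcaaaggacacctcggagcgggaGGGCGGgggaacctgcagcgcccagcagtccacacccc
Fasn, chr11:120824548-120824797, minus strand: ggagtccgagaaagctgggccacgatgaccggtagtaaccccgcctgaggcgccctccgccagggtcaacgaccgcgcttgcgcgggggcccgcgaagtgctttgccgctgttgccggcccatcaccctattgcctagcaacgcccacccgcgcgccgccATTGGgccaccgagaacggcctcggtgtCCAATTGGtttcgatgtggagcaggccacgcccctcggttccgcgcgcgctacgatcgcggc
Thrsp, chr7:97417551-97417800, minus strand: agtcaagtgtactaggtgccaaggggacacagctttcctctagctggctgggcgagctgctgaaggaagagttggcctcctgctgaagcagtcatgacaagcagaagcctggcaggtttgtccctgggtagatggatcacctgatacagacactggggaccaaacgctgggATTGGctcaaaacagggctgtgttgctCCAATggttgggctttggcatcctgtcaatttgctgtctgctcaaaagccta
Acacb, chr5:114165268-114165517, plus strand: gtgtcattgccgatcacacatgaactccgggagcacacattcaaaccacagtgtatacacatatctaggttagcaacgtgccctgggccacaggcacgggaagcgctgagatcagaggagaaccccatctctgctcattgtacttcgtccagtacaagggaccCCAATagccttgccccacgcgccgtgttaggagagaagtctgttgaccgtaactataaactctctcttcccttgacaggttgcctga

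All 10 genes had RefSeq promoter windows, 15 in all. The CCAAT box was in at least 1 window of 8 genes (9 of 15 windows), against 33.8% of all 32851 promoter windows of the same length. Among genes that fell, Acly lacked it, as did the Me1 window at the outermost start and the Srebf1 window at chr11:60220628-60220877. Of the genes that did not pass, Acaca lacked it and Pklr and Pnpla3 had it. The CCAAT box occurs 3 times before Fasn, where 2 copies overlap, and 2 times before Thrsp, and it was also present in the Acacb window. The Acacb window lies before 1 annotated start inside the gene's span and not at its outermost start, so it does not describe every Acacb promoter. The windows of Acaca, Fasn and Srebf1 also lie inside the spans of their genes, so the same limit holds for them. The GC box was in 5 genes (6 windows), against 32.7% of all windows. The E-box was in 1 window of 1 gene, Mlxipl, as seen in its line, against 6.02% of all windows. The longer pattern TCACGTGA, an E-box with the flanking bases that TFEB prefers, was in 0 of the 15 windows and in 0.785% of all windows. The sterol regulatory element pattern was in 1 window, the second Mlxipl start, against 1.05% of all windows. These matches describe letters in short windows and do not show binding.

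Most of the pathway was lower in TFEB-injected livers, with 1 clear exception. At an adjusted p under 0.05 in the fit across all genes, 6 of the 10 genes fell (Srebf1, Mlxipl, Acly, Fasn, Me1 and Thrsp), 1 rose (Acacb) and 3 did not pass (Acaca, Pnpla3 and Pklr). Of all 12393 genes, 7.92% fell and 9.99% rose, 17.9% in all. The median log2 change of the 10 genes was -0.50, against -0.01 over all genes. The TFEB-injected and not-injected arrays did not overlap for 9 of the 10 genes, 8 of them lower, while 37.1% of all genes had groups that did not overlap and 18.9% had such groups with the injected arrays lower.

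**Figure D1:**
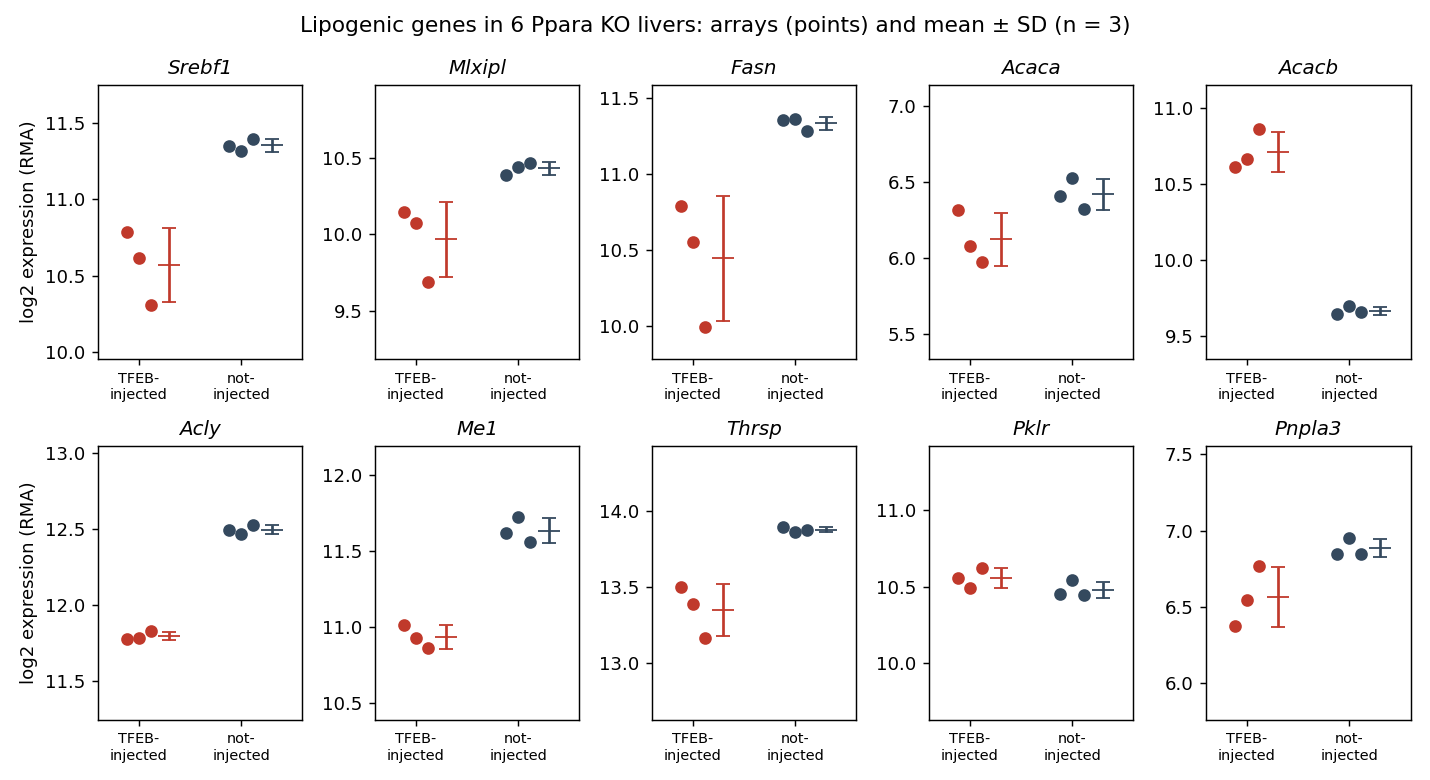
Log2 expression (vertical axes, all spanning the same number of units) of the probe set with the highest mean for each gene, in 3 TFEB-injected (red, left) and 3 not-injected (dark, right) livers. Points are single mice and bars are mean ± SD; the injected points lie below the not-injected ones in 8 genes, above them in Acacb and among them in Pklr.

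The regulator gene Srebf1, whose product switches on most of the enzyme genes, read 10.78, 10.62 and 10.30 in TFEB-injected livers, against 11.35, 11.32 and 11.40 in not-injected livers. All 3 injected mice lay well below the narrow band of the not-injected mice. Srebf1 fell to 57.9% of the not-injected level, with means of 10.57 ± 0.24 in injected and 11.36 ± 0.04 in not-injected livers (SD, n = 3 each; log2 change -0.79 ± 0.11 SE; adjusted p = 0.00335). Which of the isoforms that start at the different Srebf1 promoters this probe set reads was not looked at.

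Mlxipl, for the factor that couples glucose to lipogenic and glycolytic genes, read 10.15, 10.07 and 9.69 in TFEB-injected livers, against 10.39, 10.44 and 10.47 in not-injected livers. All injected mice were below the not-injected range, replicate 3 by the most. Mlxipl fell by 0.47 ± 0.11 on the log2 scale to 72.4% of the not-injected level (adjusted p = 0.0297). With not-injected mouse 1, 2 or 3 removed it no longer passed (adjusted p = 0.0773, 0.0936 and 0.0899), nor with TFEB-injected mouse 2 removed (0.0590). With TFEB-injected mouse 3 removed the change was -0.32 (adjusted p = 0.00709). Within each array, the Mlxipl minus Srebf1 difference was higher in the injected mice by 0.32, with no overlap of the groups. An exact two-sided permutation test gave p = 0.1, the smallest that 3 against 3 arrays allow, so this inequality of the regulators' changes cannot pass 0.05 by that test.

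Among the enzyme genes, Acly, for the ATP citrate lyase that releases cytosolic acetyl-CoA, read 11.78, 11.78 and 11.83 in TFEB-injected livers, against 12.50, 12.47 and 12.52 in not-injected livers. The injected mice were nearly identical to each other, and the gap between groups was many times the spread within them. Acly fell to 61.6% of the not-injected level (log2 change -0.70 ± 0.04; adjusted p = 1.44e-04). Of its 5 probe sets, 4 passed in the fit over all probe sets, in which 15.4% of 20380 were called. Their log2 changes were -0.70, -0.64 (1451666_at), -0.76 (1425326_at) and -1.64 (1439445_x_at). The last of these read 5.07, 5.11 and 5.24 in TFEB-injected livers, against 6.77, 6.67 and 6.89 in not-injected livers. It is dim, above only 32.8% of probe sets, and whether its injected signal lies above background was not tested, so no fold is given for it. The fifth, 1438389_x_at, had a mean level lower than all but 0.687% of probe sets and did not pass (-0.20 ± 0.09; adjusted p = 0.172). The probe set with the highest mean is itself an _x_at set, a kind that can cross-hybridise; 1451666_at and 1425326_at are not.

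Of the carboxylase genes, whose products both make malonyl-CoA, Acacb rose and Acaca did not pass the test. Acaca encodes the cytosolic enzyme whose malonyl-CoA feeds fatty acid synthase, and Acacb encodes the enzyme at the mitochondrial outer membrane whose malonyl-CoA restrains carnitine palmitoyltransferase. Acacb read 10.61, 10.66 and 10.86 in TFEB-injected livers, against 9.65, 9.70 and 9.66 in not-injected livers. All 3 injected mice were above every not-injected mouse by more than the whole spread of either group. Acacb rose 2.06-fold, to a mean of 10.71 ± 0.13 in injected livers, against 9.67 ± 0.03 in not-injected livers (SD, n = 3 each; log2 change 1.05 ± 0.07 SE; adjusted p = 1.66e-04).

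Acaca read 6.32, 6.08 and 5.97 in TFEB-injected livers, against 6.41, 6.53 and 6.32 in not-injected livers. Its only probe set is dim, above only 38.1% of probe sets, and RMA understates changes of dim genes. That limit also holds for the comparison with Acacb. The groups did not overlap, but the highest injected and the lowest not-injected mouse were almost level. The log2 change was -0.29 (95% confidence interval -0.52 to -0.07; adjusted p = 0.0752), and it passed without TFEB-injected replicate 1 (-0.39; adjusted p = 0.0156). Within each array, Acacb minus Acaca was 4.30, 4.58 and 4.89 in TFEB-injected livers, against 3.24, 3.17 and 3.34 in not-injected livers. The changes of the pair thus differed by 1.34 on the log2 scale, higher in 3 of 3 injected mice, again with the smallest exact permutation p the design allows (0.1).

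Fasn, for the fatty acid synthase that builds palmitate from malonyl-CoA, read 10.79, 10.55 and 9.99 in TFEB-injected livers, against 11.35, 11.36 and 11.28 in not-injected livers. The injected mice spread over 0.80 units and the not-injected mice over 0.08. Fasn fell to 54.0% of the not-injected level, the largest fall among the 10 genes by the probe set with the highest mean (log2 change -0.89 ± 0.18; adjusted p = 0.0144). It no longer passed with not-injected mouse 1 (adjusted p = 0.0544) or 2 (0.0578) removed. With TFEB-injected mouse 3 removed the change was -0.66 and passed (adjusted p = 0.00208), but it was then no longer the largest fall, since Acly changed by -0.72.

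Me1, for the cytosolic malic enzyme that supplies NADPH, read 11.02, 10.92 and 10.86 in TFEB-injected livers, against 11.62, 11.72 and 11.56 in not-injected livers. Both groups were tight and clearly apart. Me1 fell to 61.6% (log2 change -0.70 ± 0.06; adjusted p = 4.93e-04), and its second probe set, 1416632_at, gave a larger fall of 0.92 ± 0.05.

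Thrsp, for a thyroid hormone-responsive nuclear protein that promotes lipogenesis, read 13.50, 13.39 and 13.16 in TFEB-injected livers, against 13.89, 13.86 and 13.87 in not-injected livers. The not-injected mice lay within 0.03 units of each other, and all injected mice were below them. Thrsp fell to 69.4% (log2 change -0.53 ± 0.08; adjusted p = 0.00522). Its second probe set, 1422973_a_at, fell by 0.84 ± 0.13, with 12.37, 12.22 and 11.83 in TFEB-injected livers, against 13.01, 12.92 and 13.01 in not-injected livers. The probe set with the higher level is near the top of the array's range, above 99.4% of probe sets.

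Pnpla3, for a lipid droplet protein whose gene is a known target of the Srebf1 product, read 6.37, 6.54 and 6.77 in TFEB-injected livers, against 6.85, 6.95 and 6.85 in not-injected livers. The injected mice were all lower, with replicate 3 closest to the not-injected mice. The only Pnpla3 probe set was above 45.8% of probe sets. The log2 change was -0.32 (95% confidence interval -0.55 to -0.09; adjusted p = 0.0613), and it passed without TFEB-injected replicate 3 (-0.42; adjusted p = 0.00708).

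Pklr, for the liver pyruvate kinase and a classical target of the Mlxipl product, read 10.56, 10.49 and 10.63 in TFEB-injected livers, against 10.45, 10.54 and 10.44 in not-injected livers. The groups overlapped. The log2 change was 0.08 (95% confidence interval -0.05 to 0.21; adjusted p = 0.379), and the further probe sets gave 0.01 (1421258_a_at) and -0.02 (1421259_at). The interval leaves out a fall as large as that of Mlxipl, Thrsp or any other gene that fell here.

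**Figure D2:**
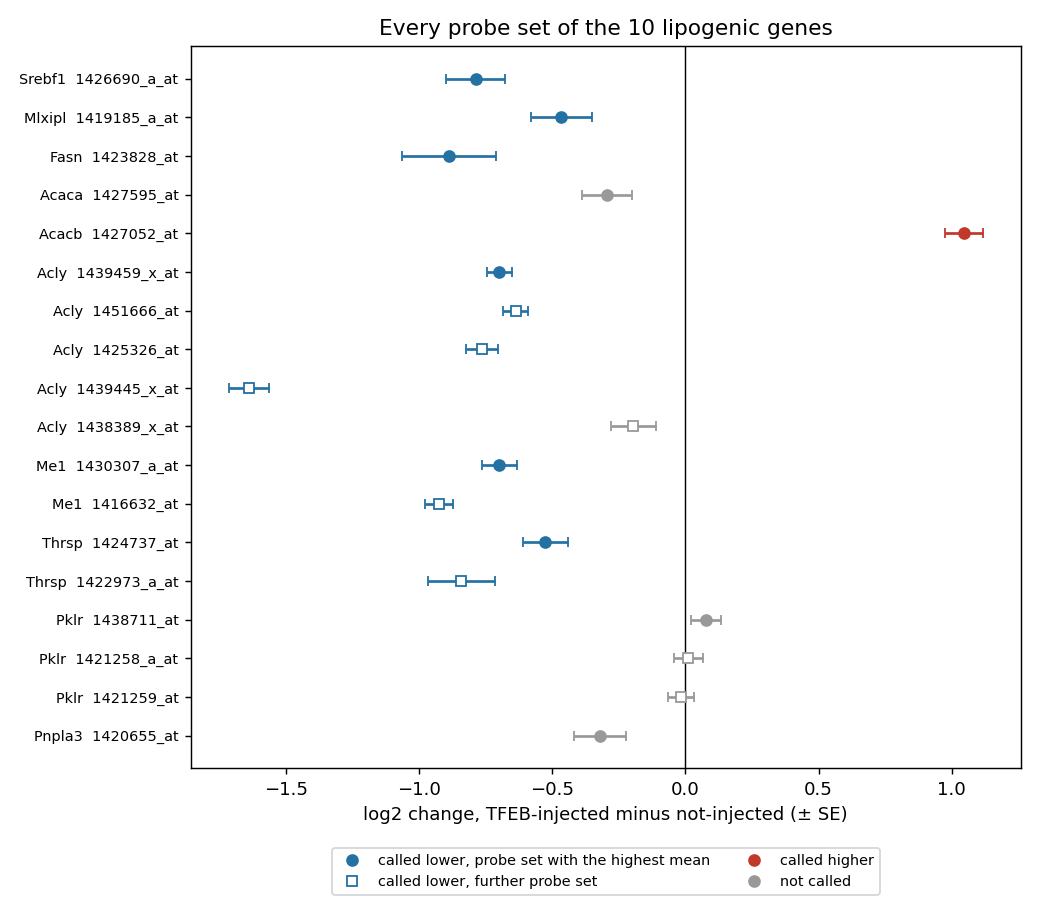
Log2 change, TFEB-injected minus not-injected, with its SE (horizontal axis) for all 18 probe sets of the 10 genes (vertical axis), from the fit over every probe set. Filled circles are the probe set with the highest mean of a gene and squares the others; blue is lower, red higher and grey not called, and probe sets of the same gene share their direction except those of Pklr, which lie around 0.

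The injected mice differed among themselves in some of the genes and not in others. TFEB-injected replicate 3 was the lowest injected mouse in 6 of the 10 genes (Srebf1, Mlxipl, Fasn, Acaca, Me1 and Thrsp) and the highest in the other 4, including Acacb; over all genes it was the lowest in 35.7% and the highest in 44.3%. Against the not-injected mean, Fasn stood at -0.54, -0.78 and -1.34 in injected replicates 1, 2 and 3, and Srebf1 at -0.57, -0.74 and -1.05. In the Acly probe set with the highest mean the same mice stood at -0.72, -0.71 and -0.67, so replicate 3 was not the lowest there. The order of the mice in Acly depended on the probe set. Replicate 3 was the lowest in 1451666_at (11.263, 11.286 and 11.255) and 1425326_at (8.95, 8.91 and 8.78). It was the highest in 1439445_x_at (5.07, 5.11 and 5.24). The SD of the injected group was above that of the not-injected group in 8 of the 10 genes, against 59.3% of all genes. The ratio of the SDs was largest in Thrsp (11.2) and Fasn (9.67), against a median of 1.24 over all genes, each SD from 3 arrays. Acly and Me1 had SD ratios of 0.980 and 0.916.

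**Figure D3:**
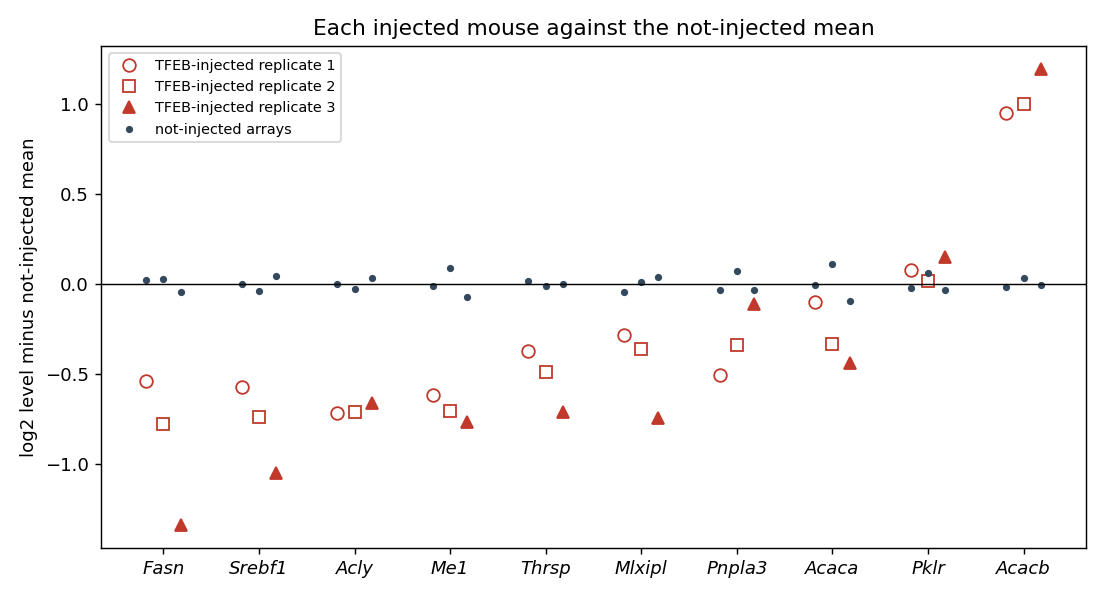
Log2 level of each TFEB-injected mouse minus the not-injected mean (vertical axis) for the 10 genes ordered by their mean change (horizontal axis); open circles, open squares and filled triangles are injected replicates 1, 2 and 3, and dark dots are the not-injected mice. The triangles lie farthest down in Fasn (-1.34) and Srebf1 (-1.05), while the 3 injected mice coincide in Acly by the probe set with the highest mean, the one shown.

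Other genes of the pathway came from lists set by known function. The share to set beside each list count is that of all genes tested, of which 9.99% rose and 7.92% fell, 17.9% in all. Upstream of the 10 genes, 1 of 17 measured control genes rose (the thyroid hormone receptor gene Thra, 0.25 ± 0.06) and 1 fell (its relative Thrb, -0.25 ± 0.06), with a median of -0.04. With not-injected mouse 1 or 2 removed neither passed (adjusted p up to 0.115), which left 0 called. Thra also failed with not-injected mouse 3 or TFEB-injected mouse 1 or 3 removed, and Thrb with TFEB-injected mouse 2 removed. The partners of the regulators did not pass: Mlx, which dimerises with the Mlxipl product, changed by 0.032 ± 0.048 (adjusted p = 0.709), Scap, the sterol-sensing escort, by 0.24 ± 0.08 (0.0905) and its retention partner gene Insig2 by 0.33 ± 0.15 (0.176). Scap and Insig2 passed with TFEB-injected mouse 1 removed (adjusted p = 0.0225 and 0.0138). Nr1h3, for the liver X receptor that activates Srebf1, changed by -0.17 ± 0.07 (adjusted p = 0.135), and Srebf2, for the factor of cholesterol synthesis, by -0.055 ± 0.05 (0.464).

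Around the precursors and cofactors, 3 of 12 genes rose and 2 fell (9.99% and 7.92% over all genes), with a median of -0.01. Mlycd, for malonyl-CoA decarboxylase, which removes the product of the carboxylases, rose by 0.36 ± 0.04, as did Pdha1 (0.25 ± 0.05) and the citrate synthase gene Cs (0.37 ± 0.09). The NADPH-producing enzyme genes Pgd (-0.28 ± 0.05) and Idh1 (-0.26 ± 0.04) fell, in the same direction as Me1. Cs no longer passed once any not-injected mouse, or TFEB-injected mouse 2, was removed (adjusted p up to 0.105). Mid1ip1, whose product helps acetyl-CoA carboxylase polymerise, read 10.17, 9.83 and 9.04 in TFEB-injected livers, against 10.17, 10.14 and 10.17 in not-injected livers. Its injected mice ran from level with the not-injected mice to far below them, lowest in the mouse that was also lowest in Fasn, and the change did not pass (-0.48 ± 0.25; adjusted p = 0.237). Acss2, for cytosolic acetyl-CoA synthetase, changed by -0.16 ± 0.11 (adjusted p = 0.391).

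Downstream of palmitate, 4 of 17 genes of chain modification and glycerolipid assembly rose and 2 fell (9.99% and 7.92% over all genes), with a median of 0.00. Elovl6, for the elongase that extends palmitate, read 10.32, 10.09 and 9.63 in TFEB-injected livers, against 11.24, 11.33 and 11.28 in not-injected livers. It fell to 41.5% of the not-injected level (log2 change -1.27 ± 0.16; adjusted p = 0.00184), a larger fall than that of any of the 10 genes by the probe set with the highest mean, though not than that of Acly probe set 1439445_x_at, and its lowest injected mouse was again replicate 3. Elovl3, for an elongase of saturated chains, fell by 0.95 ± 0.05. The polyunsaturated fatty acid desaturase genes went the other way: Fads2 rose by 0.69 ± 0.04 and Fads1 by 0.40 ± 0.06. Scd1, for the stearoyl-CoA desaturase and a well known Srebf1 target, changed by 0.06 ± 0.04 (adjusted p = 0.420). The phosphatidate phosphatase genes Lpin1 (0.28 ± 0.06) and Lpin2 (0.28 ± 0.06; named after its value was seen) rose; neither passed once any not-injected mouse, or TFEB-injected mouse 2, was removed (adjusted p up to 0.0714 and 0.0814).

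Genes of glucose and fructose use, several of them known targets of the Mlxipl product, fell in 5 of 10 cases and rose in 0, with a median of -0.31. Over all genes 7.92% fell and 9.99% rose. Khk, for the fructokinase that commits fructose to this route, read 11.96, 11.94 and 11.85 in TFEB-injected livers, against 12.49, 12.48 and 12.53 in not-injected livers, and fell by 0.58 ± 0.05. Tkfc, for the next kinase of fructose breakdown (-0.73 ± 0.10), and Slc2a2, for the hepatocyte glucose transporter (-0.39 ± 0.04), fell too. Gpd1, which makes glycerol phosphate (-0.55 ± 0.09), and G6pc, for glucose-6-phosphatase (-1.16 ± 0.26), complete the count and were named after their values were seen. G6pc read 12.76, 12.46 and 11.59 in TFEB-injected livers, against 13.45, 13.42 and 13.42 in not-injected livers. It no longer passed once any not-injected mouse, or TFEB-injected mouse 2, was removed (adjusted p up to 0.0713). Txnip, a glucose-induced Mlxipl target, changed by -0.08 ± 0.04 (adjusted p = 0.261).

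Of 10 liver X receptor targets outside fatty acid synthesis, 4 rose and 3 fell (median 0.03), against 9.99% and 7.92% of all genes. Lpcat3, for a phospholipid-remodelling enzyme (0.80 ± 0.11), Lpl, for lipoprotein lipase (0.72 ± 0.09), Pltp (0.27 ± 0.05) and the exporter gene Abcg1 (0.35 ± 0.08; named after its value was seen) rose, while the sterol exporter genes Abcg8 (-0.58 ± 0.05) and Abcg5 (-0.68 ± 0.14) and the bile acid enzyme gene Cyp7a1 (-0.83 ± 0.15) fell. With not-injected mouse 1 removed the count of 7 was 4, as Pltp, Abcg5 and Abcg1 no longer passed (adjusted p = 0.0525, 0.0559 and 0.0886). Removing not-injected mouse 3 also ended the calls of Abcg5 (0.0570) and Abcg1 (0.0700), and removing TFEB-injected mouse 2 that of Abcg1 (0.0600). Pltp changed by 0.02 with _x_at and _s_at probe sets left out. Cholesterol synthesis and uptake genes, which the Srebf2 product drives, had a median of 0.00 over 15 genes. Fdps, for farnesyl diphosphate synthase, rose 2.09-fold (1.06 ± 0.08) and Msmo1 rose by 0.28 ± 0.08, while Fdft1 (-0.32 ± 0.06) and Idi1 (-0.23 ± 0.06) fell. With the probe sets of a gene averaged, Fdps changed by 0.61 and still passed, and Fdft1 changed by -0.14 and did not (adjusted p = 0.0876). The count of 4 became 1 or 2 when any mouse but TFEB-injected mouse 1 was removed; Msmo1 and Idi1 then never passed, nor did Fdft1 with not-injected or TFEB-injected mouse 2 removed (adjusted p up to 0.150, 0.140 and 0.0629).

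**Figure D4:**
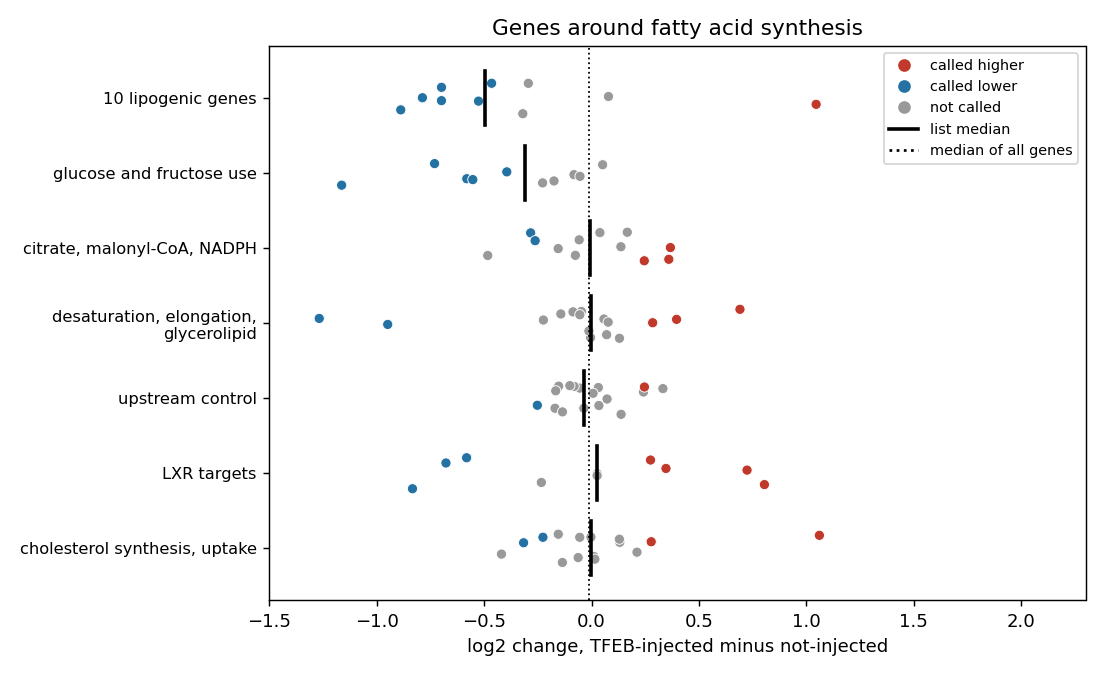
Log2 change, TFEB-injected minus not-injected (horizontal axis), of every measured gene of the 7 lists (rows); points are genes, red called higher, blue called lower and grey not called, thick bars are list medians and the dotted line is the median of all genes. The 10 lipogenic genes (median -0.50) and the glucose and fructose genes (median -0.31) lie left of the dotted line, and the other 5 medians lie between -0.04 and 0.03.

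Markers of other cells moved with the groups in some lists. Beside the marker counts stand the shares over all genes, 9.99% that rose and 7.92% that fell. Adipocytes also express these enzymes at high levels. Of 8 adipocyte markers, Adipoq, Lep, Cidec and Cidea were above only 3.61%, 9.79%, 14.1% and 26.7% of probe sets. Fabp4, Pparg, Slc2a4 and Retn were above 69.5%, 56.3%, 55.5% and 40.7%. Pparg (0.86 ± 0.21) and Cidec (0.43 ± 0.11) rose and 0 of the 8 fell; neither passed once any not-injected mouse, or TFEB-injected mouse 2, was removed (adjusted p up to 0.106 and 0.105). The summed linear signal of the list was 841 to 905 in TFEB-injected livers, against 819 to 823 in not-injected livers, and its median log2 change was -0.06. Hepatocyte markers summed to 162247 to 168101 in TFEB-injected livers, against 167993 to 168642 in not-injected livers, and the one with the smallest p, Cps1, changed by -0.14 ± 0.05 (adjusted p = 0.0905).

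Of 9 macrophage and Kupffer cell markers, 6 rose and 0 fell, among them Cd5l (0.63 ± 0.05), Vsig4 (0.50 ± 0.06) and Cd68 (0.44 ± 0.05). Their sum was 9321 to 11275 in TFEB-injected livers, against 7009 to 7217 in not-injected livers, and their median log2 change was 0.49. Of 10 endothelial markers, 2 rose (Stab2, 1.42 ± 0.05, and Lyve1, 0.89 ± 0.07) and 0 fell, with sums of 4257 to 4938 in TFEB-injected livers, against 3670 to 3850 in not-injected livers. The median log2 change of the endothelial markers was -0.02. Of 10 stellate and fibroblast markers, Col3a1 (0.32 ± 0.05) and Col1a2 (0.24 ± 0.06) rose and Lrat (-0.48 ± 0.10) and Reln (-0.19 ± 0.04) fell.

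Several lists were lower in sum, to which the brightest genes of a list contribute most. Their median log2 changes were 0.01 for lymphocyte, -0.14 for erythroid, -0.16 for cholangiocyte and -0.24 for pancreatic acinar markers. Of 8 lymphocyte markers, Ighm fell (-0.99 ± 0.20) and Gzma rose (0.36 ± 0.08), with sums of 1085 to 1685 in TFEB-injected livers, against 2110 to 2409 in not-injected livers. Of 4 erythroid markers, Alas2 fell (-0.81 ± 0.07), with sums of 806 to 902 in TFEB-injected livers, against 1323 to 1346 in not-injected livers. Of 5 cholangiocyte markers, Sox9 fell (-0.33 ± 0.05), with sums of 261 to 266 in TFEB-injected livers, against 302 to 316 in not-injected livers. Of 5 pancreatic acinar markers, Cela1 (-0.85 ± 0.05) and Prss2 (-0.38 ± 0.07) fell, with sums of 1076 to 1187 in TFEB-injected livers, against 1823 to 1926 in not-injected livers. Of 6 neutrophil markers S100a8 rose (0.25 ± 0.07), and of 6 muscle markers 0 passed (smallest p for Mylpf, -0.12 ± 0.06). Ighm changed by -0.20 with its probe sets averaged. Of these calls, 6 ended when TFEB-injected mouse 2 was removed (Col1a2, Lrat, Reln, Gzma, Ighm and S100a8). Further single mice also ended them: any not-injected mouse for Reln and S100a8, not-injected mouse 1 or 3 for Col1a2, mouse 2 or 3 for Lrat and Gzma, mouse 2 for Ighm, and TFEB-injected mouse 1 or 3 for Col1a2 and S100a8 (adjusted p up to 0.154). The part of these cells in the changes of the 10 genes was not tested.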

How the data were processed

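Total liver RNA of 6 mice was measured on Affymetrix arrays, 3 TFEB-injected and 3 not-injected, grouped by the labels' titles. The deposited values are log2 expression levels (3.08 to 15.20), made by the authors with affy and RMA per the submitters' processing notes, version not given in the sources used here. RMA sets all arrays to 1 distribution, so an overall shift in RNA content cannot be seen, and it understates changes of dim genes. The number of arrays limits the precision.

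Of 22690 probe sets, 20380 that were no controls carried 1 gene symbol; symbols were checked through gene IDs in a GRCm38.p6 RefSeq table, and 0 needed an update. The probe set with the highest mean over the 6 arrays stood for each of 12393 genes. The groups were compared with limma 3.58.1 in R 4.3.3 (lmFit, eBayes); p-values were adjusted over every gene (Benjamini-Hochberg), with 0.05 as the threshold; "rose" and "fell" mean adjusted p under 0.05. Levels are mean ± SD and changes estimate ± SE. The fit was tested on simulated data. Gene pairs were compared by an exact permutation test over arrays.

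The 10 genes and the lists were chosen with earlier results of these data known, so list counts stand beside all genes and have no p of their own. Named by rule were the 10 genes, the regulators and enzymes Mlx, Scap, Insig2, Nr1h3, Srebf2, Acss2, Mid1ip1, Mlycd, Scd1, Elovl6 and Txnip, and up to 3 called genes per direction of each list by smallest p, or, in lists without a call, its top gene by p. Insig1 and Slc25a1, also in that rule, are not analysed here, and 1 item is not reported here. Alternatives covered probe set choice, a filter on low levels, scaling, variance prior, weights per array, a replicate block, each array left out, the threshold and moderation. Promoters came from a RefSeq table of GRCm38.p6. Figures were drawn with matplotlib 3.10.9.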

Additional observations from a re-analysis of the deposited data

How the results depend on the processing

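Across 16 alternatives, Srebf1, Acly, Me1 and Acacb kept their direction and their call in each, and Pklr kept its direction. Acaca and Pnpla3, which lie below the median level and so gave no value with such genes left out, kept theirs in the other 15. The count of 7 of the 10 genes ranged from 5 to 8 with 1 array left out and was 4 with no moderation. Mlxipl (-0.47 in each case) lost its call under the replicate block, with no moderation and at an adjusted p under 0.01, with -0.55 to -0.32 over the fits with 1 array left out. Fasn (-0.89) lost it with no moderation and at 0.01 (-1.06 to -0.66 with 1 array left out) and Thrsp (-0.53) with no moderation. Calls were gained by Acaca with array weights (-0.34; -0.39 to -0.22 with 1 array left out) and by Pnpla3 with array weights (-0.34) and an intensity trend with a robust prior (-0.32; -0.42 to -0.23 with 1 array left out). The array weights did not reach the convergence tolerance.

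The count over all genes, 2219, was 5854 with array weights, 1053 at 0.01 and 1229 to 2409 with 1 array left out; it was 1229 without TFEB-injected replicate 2 and 1271, 1345 and 1448 without not-injected replicates 1, 2 and 3. The upstream count of 2 was 4 with the intensity trend, 11 with array weights, 1 with no moderation, 0 under the replicate block and at 0.01, and 0 to 3 with 1 array left out. The precursor count of 5 was 9 with array weights and 3 at 0.01 and without _x_at and _s_at probe sets, where Pgd lost its call and Idh1 had no probe set left. The glucose and fructose count of 5 was 3 with no moderation. The cholesterol count of 4 was 8 with array weights, 2 under the replicate block, 1 with no moderation and at 0.01, and 1 to 6 with 1 array left out. The liver X receptor target count of 7 was 4 with no moderation and at 0.01 and 4 to 8 with 1 array left out. When probe sets of a gene were averaged, Mlx (-0.035) and Srebf2 (0.0071) changed sign, neither being called. Among the other named genes of the pathway lists, calls ended with no moderation for Thra, Thrb, Cs, Lpin1, Lpin2, Gpd1, G6pc, Msmo1, Fdft1, Idi1, Cyp7a1, Abcg5 and Abcg1, under the replicate block for Thra, Thrb, Pdha1, Msmo1 and Idi1, with the intensity trend for G6pc, with cyclic loess for Msmo1, and with averaged probe sets for Fdft1, Pltp and Lpin2. Fits with 1 array left out have fewer samples and the 0.01 threshold is stricter; for the other settings the cause was not tested.

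Replicate numbers are shared between the groups, but same-numbered arrays did not deviate together (correlations of 0.01, -0.13 and -0.11 for numbers 1, 2 and 3). No pairing of the mice by number was thus seen, though with 3 arrays per group these correlations cannot exclude one. A block on the number gave 1533 called genes and 6 of the 10. The within-array differences, fitted by limma with the replicate block, were 1.34 for Acacb minus Acaca and 0.32 for Mlxipl minus Srebf1. Both then had a p under 0.05 that was not adjusted over the genes. As the labels state no pairing and none was seen, no call is drawn from that fit.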
